A study of Mus musculus with 12 samples.

Results

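The respiratory chain and ATP synthase are built from subunits encoded in 2 genomes, and both sets were followed here in cultured mouse liver cells given riociguat. The members were all protein-coding genes whose symbols mark them as subunits of complexes I to V or as numbered complex I assembly factors (symbols starting with Ndufa, Ndufb, Ndufc, Ndufs or Ndufv, Sdha to Sdhd, Uqcr, Cox4 to Cox8, Atp5, mt-Nd, mt-Co, mt-Cytb or mt-Atp). This gave 107 of the 53452 genes in the table, of which 94 were nuclear and 13 were encoded by mitochondrial DNA. The nuclear members were 36 subunits of complex I (NADH dehydrogenase), 8 complex I assembly factors (Ndufaf genes, which the symbols also catch), 4 subunits of complex II (succinate dehydrogenase), 8 of complex III (the cytochrome bc1 complex), 20 of complex IV (cytochrome c oxidase) and 18 of complex V (ATP synthase). Another 13 genes with matching symbols were not protein coding and were left out (11 of them with at most 4 counts in all, and Ndufb1-ps and Ndufb4c with 1893 and 3057), and Atp5o was held by 2 identifiers, the second with no counts. Nuclear members with near-identical copies elsewhere in the genome may have shared reads with them, and such counts are uncertain. Cyc1, which encodes cytochrome c1 of complex III, has a symbol outside these rules and is counted with the related genes further on.

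Complexes I, III and IV pass electrons from NADH to oxygen and pump protons across the inner mitochondrial membrane, complex II feeds in electrons from succinate, and complex V uses the proton gradient to make ATP. Mitochondrial DNA encodes core, membrane-embedded subunits of complexes I, III, IV and V and none of complex II, and it is transcribed by its own polymerase as long transcripts from both strands, which are then cut into messages. The nuclear subunits are transcribed gene by gene, made in the cytosol and imported, and the transcription factors NRF1, GABP (of the ETS family) and YY1 are known to bind many of their promoters.

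The cells were labelled as HSCs of wild-type mice, isolated from the liver. The labels do not say what HSC stands for. All 4 groups of 3 libraries were cultured for 12 h, given fresh medium and collected 24 h after that change. Riociguat, a drug that stimulates soluble guanylate cyclase and so raises cyclic GMP, was present for the last 6 h, the last 12 h or all 24 h before collection, and the controls received the solvent DMSO for the last 12 h. The dose is not given in the labels. Only the 12 h riociguat group therefore had controls with the same exposure time, and the groups given riociguat for 6 h and 24 h were compared with the same 3 DMSO libraries. Replicates are numbered, but no label says whether they came from separate animals or cultures, so p-values measure only the spread between these libraries, which may be technical.

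Libraries held 12953096 to 27358893 counts. A list of 12 stellate cell markers (among them Lrat, Des and Pdgfrb) summed to 3625.9 to 3983.4 CPM (counts scaled to the size of each library), with none of the 12 at 0. Genes that mark hepatocytes and endothelial cells were also detected, summing to 550 to 1351.5 CPM for 10 hepatocyte genes and 699 to 1149.9 CPM for 8 endothelial genes. In bulk samples fewer cells of a type and less RNA per cell cannot be told apart.

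Promoters of 3 members that rose after 24 h are shown because each holds a match to a motif of a factor named above. RefSeq windows (GRCm38.p6) were matched to 74 of the 93 nuclear member symbols, and the 250 bases before the start were searched on both strands for GCGCATGC (NRF1), CCGGAAG (the ETS factors, GABP included) and AAGATGGC (YY1). All 3 genes lie on the minus strand, at chr4:116075071-116075320 (Uqcrh), chr10:80406822-80407071 (Uqcr11) and chr9:44920743-44920992 (Atp5l). Each line runs 5′ to 3′ toward the start, and capitals mark the motif matches.
Uqcrh: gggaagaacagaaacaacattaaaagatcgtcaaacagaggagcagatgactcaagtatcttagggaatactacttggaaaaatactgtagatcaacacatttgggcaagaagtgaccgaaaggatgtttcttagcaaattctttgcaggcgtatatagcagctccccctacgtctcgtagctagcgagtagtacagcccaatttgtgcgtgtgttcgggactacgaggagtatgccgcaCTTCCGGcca
Uqcr11: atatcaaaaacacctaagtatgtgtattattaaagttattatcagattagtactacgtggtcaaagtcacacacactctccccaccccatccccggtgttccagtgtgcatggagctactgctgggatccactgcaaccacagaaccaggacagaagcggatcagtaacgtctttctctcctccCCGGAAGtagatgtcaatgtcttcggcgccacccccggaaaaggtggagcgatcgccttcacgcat
Atp5l: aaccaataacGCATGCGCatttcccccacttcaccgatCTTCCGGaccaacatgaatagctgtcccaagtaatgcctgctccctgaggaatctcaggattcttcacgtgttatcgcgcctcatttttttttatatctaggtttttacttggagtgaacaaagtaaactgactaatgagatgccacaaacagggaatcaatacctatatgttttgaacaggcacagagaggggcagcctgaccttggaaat

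The ETS match began 10 bases before the start in Uqcrh and 66 bases before it in Uqcr11. In Atp5l the NRF1 match began 240 bases and the ETS match 212 bases before the start. Over the members, the NRF1 letters were in 9 of 74 windows (12.2%), compared with 2.56% of all 27025 genes with a window and 4.7% of the 11054 protein-coding genes tested. The ETS letters were in 14 member windows (18.9%), compared with 7.83% of all genes and 14.5% of those tested. The YY1 letters were in 1 member window (1.35%), compared with 1.83% of all genes and 2.2% of those tested. Of the 9 members with a window that rose at 24 h, 4 held the ETS letters (Atp5h, Atp5l, Uqcr11 and Uqcrh) and 2 the NRF1 letters (Atp5l and Ndufa6). A match describes these letters only, and no binding was measured.

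The 13 mitochondrial messages were far more abundant than the nuclear ones. They took 2.56 to 4.65% of all counts in a library, whereas the 94 nuclear members together took 0.595 to 0.720%. Per kilobase of transcript in the DMSO libraries, the median level was 2034.4 CPM per kb for the mitochondrial members and 57.5 CPM per kb for the 88 nuclear members that passed the filter on low counts. The 4 highest mitochondrial levels per length were those of mt-Co1 (5845.7 ± 1221.7 CPM per kb, SD, n = 3), mt-Co3 (5403.7 ± 1412.3), mt-Co2 (5167.2 ± 1979.5) and mt-Atp6 (4842.5 ± 1486.7), which lie within their spread of each other. The first 3 are the catalytic core of complex IV and the last is the proton channel subunit of complex V. The subunits mt-Nd1 (3468.6 ± 749 CPM per kb), mt-Cytb (3169 ± 967), mt-Nd4 (2034.4 ± 844) and mt-Nd2 (1782.7 ± 1216.1) followed, again within their spread. At the low end stood mt-Nd5 (714 ± 164), mt-Nd3 (553 ± 80.6), mt-Nd4l (375 ± 78.7) and mt-Atp8 (187 ± 211). The lowest was mt-Nd6, the 1 mitochondrial subunit read from the light strand, at 2.04 ± 1.35 CPM per kb. Among these genes 4 neighbouring pairs overlap on the chromosome M map. They are mt-Atp8 and mt-Atp6 by 43 bases (7766 to 7969 and 7927 to 8607), mt-Atp6 and mt-Co3 by 1 base, mt-Nd4l and mt-Nd4 by 7 bases (9877 to 10173 and 10167 to 11544) and, on opposite strands, mt-Nd5 and mt-Nd6 by 14 bases (11742 to 13565 and 13552 to 14070). No source used here gives the strand setting of the counting, so reads of mt-Nd6 and of its opposite strand may not have been told apart, and short messages such as mt-Nd3 and mt-Nd4l are measured over few bases.

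Among nuclear members the highest level per length was that of Atp5b, the catalytic beta subunit of complex V, at 612 ± 34.7 CPM per kb (SD, n = 3). The complex III core protein Uqcrc1 followed at 361 ± 9.04 and the alpha subunit Atp5a1 at 285 ± 11.4 CPM per kb. Next came the complex IV subunits Cox6a1 (236 ± 8.27 CPM per kb), Cox4i1 (208 ± 9.04), Ndufa4 (187 ± 9.86), Cox8a (181 ± 6) and Cox6b1 (181 ± 7.98), of which Ndufa4 is named after complex I but belongs to complex IV. Complex I assembly factors were at the low end, from 6.12 ± 0.882 for Ndufaf6 to 20.2 ± 1.11 CPM per kb for Ndufaf2. All complex II subunits are nuclear, and they ranged from 56 ± 1.86 for the iron-sulfur subunit Sdhb to 123 ± 0.638 CPM per kb for the flavoprotein Sdha.

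Isoforms known from other tissues or from low oxygen were near the detection limit. Per transcript length, Cox4i2, the isoform linked to low oxygen, was 0.232 to 0.76% of the level of Cox4i1 across the 12 libraries. Ndufa4l2, a hypoxia-linked relative of Ndufa4, was 0.289 to 1.26% of it, and Cox6b2, known from testis, 0.41 to 1.3% of Cox6b1. The heart and muscle isoform Cox6a2 reached at most 0.594% of Cox6a1, and Cox7a1 at most 1.92% of Cox7a2. Cox8b held 1 count, Cox7b2 held 3 and Cox8c held 0 in the 12 libraries together, where a count of 0 allows up to 3. Cox4i2 was at 1.05, 0.716 and 1.16 CPM in DMSO and at 0.629, 0.419 and 0.371 CPM after 6 h of riociguat, so the groups did not overlap, with a log2 fold change of -1.09 ± 0.43 (SE, adjusted p = 0.135). Ndufa4l2 had a log2 fold change of -0.78 ± 0.38 after 24 h (adjusted p = 0.204). These levels rest on 8 to 24 counts per library for Cox4i2 and 10 to 49 for Ndufa4l2, so counting error is large.

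The summed level of the nuclear members was 6404.2, 6553.7 and 6667.9 CPM in the DMSO libraries. It was 6522.7, 6293.2 and 6035.2 CPM after 6 h, 6863.6, 6627.3 and 6540.4 CPM after 12 h, and 6781.6, 6841.4 and 7144.8 CPM after 24 h of riociguat. All 24 h libraries lay above all DMSO libraries (means of 6922.6 ± 195 and 6541.9 ± 132 CPM, SD, n = 3), while the 6 h and 12 h libraries overlapped with DMSO. The mitochondrial sum was far more variable, at 44629.6, 29631.6 and 25773.1 CPM in DMSO, and each riociguat group overlapped with that range. It was 31991.4, 35601.2 and 38682 CPM after 6 h, 34268.9, 46298.2 and 37887.9 CPM after 12 h, and 37348.4, 31587.6 and 30292 CPM after 24 h. The overlap rested on DMSO replicate 1, since the other DMSO libraries lay below all riociguat libraries. The log2 ratio of the group means against DMSO was 0.09 after 6 h, 0.24 after 12 h and -0.01 after 24 h, and without DMSO replicate 1 it was 0.35, 0.51 and 0.26. The ratio of the mitochondrial to the nuclear sum ran from 3.87 to 6.99, and both its lowest value and 6.97, close to its highest, came from DMSO libraries.

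**Figure D1:**
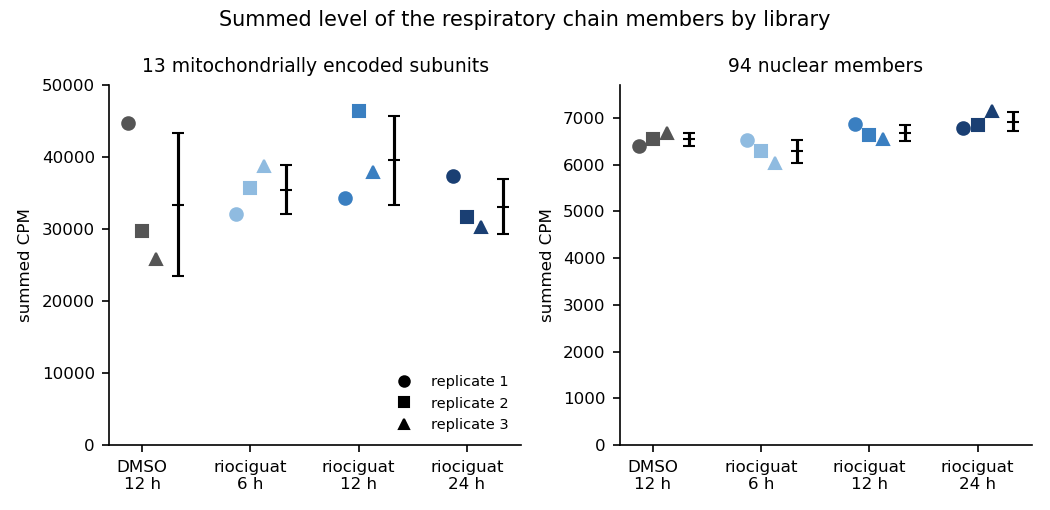
Summed CPM of the 13 mitochondrially encoded subunits (left) and the 94 nuclear members (right) in each library, by group, with the mean and SD (n = 3) as black bars and replicates by symbol. The mitochondrial sum spans 25773.1 to 44629.6 CPM within DMSO, whereas the nuclear sum after 24 h runs from 6781.6 to 7144.8 CPM and in DMSO from 6404.2 to 6667.9 CPM.

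Counts were compared with edgeR's quasi-likelihood test in 1 fit of all 12 libraries, and a gene was called at a Benjamini-Hochberg adjusted p under 0.05 over the 16036 genes tested. Of the members, 101 were tested (88 nuclear and all 13 mitochondrial). The 6 left out for low counts were Cox6a2, Cox7a1, Cox7b2, Cox8b, Cox8c and the second Atp5o identifier. Adjusted p-values below are from this test unless another is named.

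After 24 h of riociguat 14 nuclear members rose against DMSO and none fell. That is 15.9% of the 88 tested, beside 5.94% of all genes that rose and 7.41% that fell (13.4% in either direction). The median log2 fold change of the nuclear members was 0.11, beside -0.01 for all genes, and 69 of the 88 were above 0. Complex III had 3 risen of 8 tested, complex IV 3 of 15, complex V 5 of 17 and complex I 3 of 36, while 0 of the 8 assembly factors and 0 of the 4 complex II subunits were called (4 and 0 at an unadjusted p under 0.05). Of all 16036 genes, 4216 had an unadjusted p under 0.05. No mitochondrially encoded member was called in this fit or by DESeq2 (other fits are given further on), and their median log2 fold change was -0.02. The changes were small, from 0.20 to 0.53 on the log2 scale.

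Complex III held the member with the largest rise, and positions of genes here and below are those of GENCODE on GRCm38. Uqcrb, a small subunit next to the ubiquinone site (chr13:66900617-66905378), was at 56.2, 49.8 and 40.1 CPM in DMSO and at 74.9, 63.2 and 72.8 CPM after 24 h. All 24 h libraries were above all DMSO libraries, and the log2 fold change was 0.53 ± 0.09 (SE, adjusted p = 0.000965). The hinge protein gene Uqcrh (chr4:116066965-116075071), whose promoter is printed above, was at 47.3, 41.4 and 42 CPM in DMSO and at 60.8, 48.3 and 58.8 CPM after 24 h. Its lowest 24 h library lay just above its highest DMSO library, and its log2 fold change was 0.36 ± 0.09 (adjusted p = 0.0157). Uqcr11 (chr10:80402997-80406830), a very small subunit, was at 27.6, 25.5 and 21.4 CPM in DMSO and at 29.1, 31.7 and 38.1 CPM after 24 h (log2 fold change 0.41 ± 0.12, adjusted p = 0.0298). The 2 core proteins of the same complex were not called; Uqcrc1 was at 192 ± 4.82 CPM in DMSO and 195 ± 2.16 CPM after 24 h (SD, n = 3).

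In complex IV the risen members were 3 small subunits that surround the mitochondrially encoded core. Cox7c (chr13:86044816-86046904) was at 42.1, 36.1 and 44.5 CPM in DMSO and at 54.6, 52.1 and 56 CPM after 24 h, with no overlap and a log2 fold change of 0.41 ± 0.09 (SE, adjusted p = 0.00545). Cox4i1 (chr8:120668222-120674207, common isoform of subunit 4) was at 148, 161 and 155 CPM in DMSO and at 174, 171 and 189 CPM after 24 h (log2 fold change 0.20 ± 0.05, adjusted p = 0.0192). Cox6c (chr15:35925886-35938246) was at 36.7, 30.5 and 31.6 CPM in DMSO and at 41.5, 37.4 and 40.4 CPM after 24 h. The groups were separate by a narrow gap, and its log2 fold change was 0.27 ± 0.08 (adjusted p = 0.0336).

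Complex V had the largest number of risen members. Those of the peripheral stalk were Atp5f1 (subunit b) and Atp5h (subunit d). Atp5f1 (chr3:105942698-105960099) was at 137, 135 and 142 CPM in DMSO and at 156, 149 and 171 CPM after 24 h (log2 fold change 0.20 ± 0.05, adjusted p = 0.0142). Atp5h (chr11:115415689-115419962) was at 104, 114 and 121 CPM in DMSO and at 137, 132 and 142 CPM after 24 h (0.28 ± 0.07, adjusted p = 0.0144). In both, each 24 h library was above each DMSO library. Of the membrane part, Atp5l (subunit g, chr9:44912557-44920742) was at 59.3, 60.2 and 66.6 CPM in DMSO and at 71.9, 72.7 and 76.5 CPM after 24 h (0.25 ± 0.07, adjusted p = 0.0257). The proteolipid gene Atp5mpl (chr12:111961375-111966977) was at 23.1, 20.6 and 24.7 CPM in DMSO and at 27.7, 28.5 and 32 CPM after 24 h (0.37 ± 0.09, adjusted p = 0.0122).

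The proton-carrying c ring of complex V is encoded by 3 genes for the same mature protein. Atp5g1 (chr11:96068852-96075670) was at 85.7, 86.1 and 94.4 CPM in DMSO and at 98.3, 110 and 101 CPM after 24 h, and rose by a log2 fold change of 0.21 ± 0.06 (SE, adjusted p = 0.0248). Atp5g3 was not called, at 71.3 ± 2.56 CPM in DMSO and 77.9 ± 7.44 CPM after 24 h (SD, n = 3). Atp5g2 stood out by its spread within groups, with 15.2, 52 and 32.5 CPM after 12 h and 20.3, 58.3 and 23.4 CPM after 24 h, against 42, 32.4 and 43 CPM in DMSO. Its coefficient of variation was 62.2% after 24 h, while the median over the nuclear members was 7.23%, and no comparison called it.

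In complex I the 3 risen members came from different parts of the enzyme. Ndufv2, an iron-sulfur subunit of the NADH-binding module (chr17:66078638-66101559), was at 51.2, 49.7 and 53.6 CPM in DMSO and at 59.6, 55.7 and 61.5 CPM after 24 h (log2 fold change 0.20 ± 0.06, SE, adjusted p = 0.0281). Ndufb11 of the membrane arm (chrX:20615326-20617619) was at 24, 28.8 and 23.5 CPM in DMSO and at 29.1, 32.8 and 35.7 CPM after 24 h. Here the lowest 24 h library only just exceeded the highest DMSO library (log2 fold change 0.35 ± 0.10, adjusted p = 0.0263). The accessory subunit Ndufa6 (chr15:82350140-82354322) was at 20, 18.6 and 18.8 CPM in DMSO and at 22.9, 23 and 23.9 CPM after 24 h (0.29 ± 0.09, adjusted p = 0.0462). The other 33 nuclear subunits of complex I did not pass the test.

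**Figure D2:**
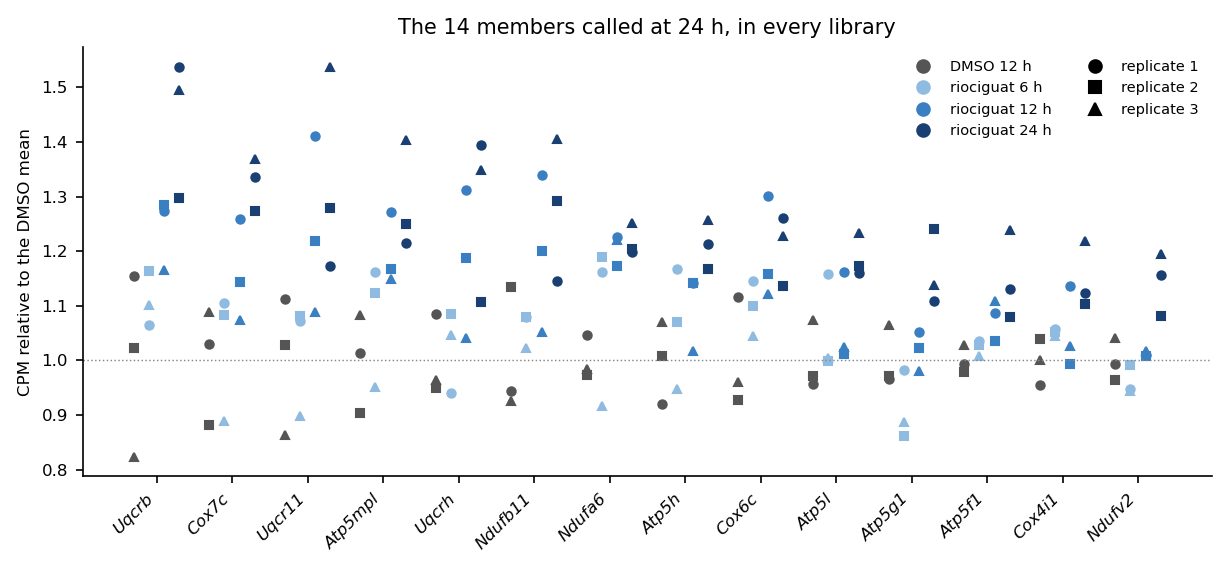
CPM of the 14 members called after 24 h of riociguat in each of the 12 libraries, divided by the gene's mean in DMSO, with groups by colour and replicates by symbol. Each 24 h library lies above each DMSO library for all 14 genes, with the smallest gaps for Ndufb11 and Cox6c. The genes were chosen by their calls in this same comparison, which favours such a separation, so it is not separate evidence.

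Groups that did not overlap were common among all genes in the 24 h comparison, with 12.6% of them higher in each 24 h library than in each DMSO library and 15.7% lower. Among the nuclear members 32 of 88 were separate upward and 0 downward. The count of called members depended on single libraries. It was 4 (3 higher and 1 lower) without riociguat 24 h replicate 3, 5 without DMSO replicate 2, and 9 without DMSO replicate 3. Calls over all genes fell as well, from 952 higher and 1189 lower with all libraries. They were then 759 higher and 846 lower, 598 and 797, and 686 and 775. Uqcrb and Cox7c were called under all 13 alternatives, with log2 fold changes of 0.42 to 0.65 and 0.32 to 0.48, and each of the other 12 lost its call under at least 1.

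Other gene groups moved in the same 24 h libraries. Of 80 cytosolic ribosomal protein genes tested, 42 rose and 0 fell, with a median log2 fold change of 0.18 and a summed level of 41683.2 ± 1688.6 CPM beside 37603.6 ± 632 CPM in DMSO (SD, n = 3). Like them, many respiratory chain subunits have short messages. Among the 44 nuclear members with transcripts at or under the members' median of 710 bases, 9 rose (20.5%), beside 10.7% of all 929 nuclear protein-coding genes tested in that length range. Leaving the members and the ribosomal protein genes out, it was 7.69% of 845 genes. Among the 44 longer members 5 rose (11.4%), beside 6.02% of all longer genes. Of 10 hepatocyte markers 9 fell and 0 rose, and their summed level was 668 ± 113 CPM, from 550 to 775 CPM, beside 1186.8 ± 34.6 CPM, from 1153.1 to 1222.3 CPM, in DMSO. Of 8 endothelial markers 4 fell and 1 rose (723 ± 21.2 beside 925 ± 46.8 CPM). The 5 cholangiocyte genes, which include Spp1, summed to 987 ± 19.2 beside 549 ± 22 CPM, with 1 called higher and 0 lower. Their median log2 fold change was -0.14, so the higher sum did not hold for most of the 5. Of the 12 stellate cell markers 6 rose and 4 fell, and their summed level was 3804.5 ± 113 beside 3914.5 ± 64.5 CPM. None of the markers was at 0 throughout, and the part of message length or of these other cells in the rise of the members was not tested.

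After 6 h of riociguat 3 nuclear members fell against DMSO and none rose, which is 3.41% of those tested, beside 9.72% of all genes called in either direction (4.48% higher and 5.24% lower). The largest change of any called member in the comparisons with DMSO was in Ndufaf6 (chr4:11051045-11076205), a factor needed to build complex I. It was at 5.65, 6.66 and 7.55 CPM in DMSO and at 3.22, 3.26 and 3.45 CPM after 6 h, with a log2 fold change of -0.99 ± 0.17 (SE, adjusted p = 0.0012). The levels after 12 h (5.08, 5.24 and 5.48 CPM) and 24 h (4.12, 5.4 and 5.74 CPM) lay between these groups or overlapped with DMSO, and neither was called against DMSO (adjusted p = 0.339 and 0.154). Ndufaf6 kept its call after 6 h under all 13 alternatives.

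A second assembly factor, Ndufaf5, a methyltransferase-family enzyme that modifies the core subunit Ndufs7, was also lower after 6 h. It was at 8.09, 8.93 and 8.62 CPM in DMSO and at 5.66, 7.02 and 5.75 CPM after 6 h (log2 fold change -0.47 ± 0.13, SE, adjusted p = 0.0289), and at 8.47, 8.71 and 8.4 CPM after 12 h. Sdhd, the small membrane anchor of complex II (chr9:50596357-50603812), was at 95.6, 99 and 90.7 CPM in DMSO and at 84.8, 80.3 and 85.3 CPM after 6 h, with no overlap (-0.19 ± 0.05, adjusted p = 0.0222). None of the other 6 assembly factors was called at 6 h, and the highest log2 fold change was 0.24 for Ndufaf1 (adjusted p = 0.178). Endothelial markers were higher in the 6 h libraries (1104.6 ± 41.2 beside 925 ± 46.8 CPM in DMSO, SD, n = 3, with 2 of 8 called higher). Hepatocyte markers summed to less (1031.6 ± 76.2 beside 1186.8 ± 34.6 CPM, with 0 of 10 called). Stellate cell markers did too (3734.0 ± 93.7 beside 3914.5 ± 64.5 CPM, with 1 of 12 called higher and 2 lower). The part of these cells in the lower members was not tested. The median log2 fold change of all 88 nuclear members was -0.06 and 24 of them were above 0. Without DMSO replicate 2 only 1 member was called, and without DMSO replicate 1 the count was 11 (6 higher, 5 of them mitochondrial, and 5 lower). Over all genes 459 were called higher and 496 lower without DMSO replicate 2. It was 989 and 863 without DMSO replicate 1, beside 718 and 841 with all libraries.

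After 12 h, the comparison with matched exposure, no member was called by edgeR, beside 5.66% of all genes (2.18% higher and 3.48% lower). An unadjusted p under 0.05 was found for 23 of the 101 members, beside 2695 of all 16036 genes. DESeq2 called 3 members higher and 0 lower, beside 456 and 632 of all genes. The median log2 fold change of the nuclear members was 0.07, with 64 of 88 above 0. The lowest adjusted p was that of Uqcrb, with 62, 62.6 and 56.8 CPM after 12 h and a log2 fold change of 0.31 ± 0.10 (SE, adjusted p = 0.0696). Ndufv3, an accessory subunit of the NADH-binding module, was at 25, 24.8 and 25.2 CPM after 12 h and at 22.6, 21.1 and 20.1 CPM in DMSO (0.23 ± 0.07, adjusted p = 0.0812). For Cox6c the values were 42.8, 38.1 and 36.9 CPM after 12 h (0.26 ± 0.08, adjusted p = 0.0832). The mitochondrially encoded members had a median of 0.27, and the lowest adjusted p among them was that of mt-Nd1 (0.35 ± 0.11, adjusted p = 0.0968).

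**Figure D3:**
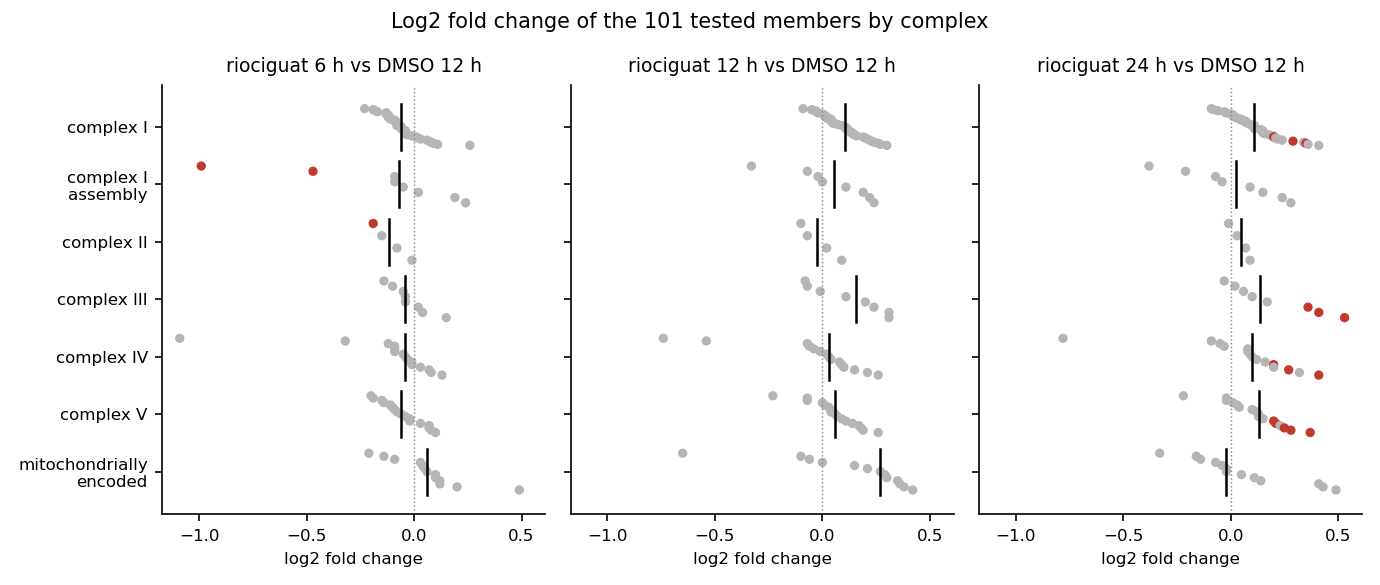
Log2 fold change against DMSO of the 101 tested members after 6, 12 and 24 h of riociguat, grouped by complex, with called members in red, others in grey and the group's median as a black bar. The called members are 3 below 0 at 6 h (Ndufaf6, Ndufaf5 and Sdhd), none at 12 h and 14 above 0 at 24 h, and no mitochondrially encoded subunit is called.

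The mitochondrially encoded members varied more within groups than the nuclear ones, and DMSO replicate 1 stood apart. In the DMSO group their median coefficient of variation was 30.5%, beside 5.38% for the nuclear members and 8.23% for all genes tested. In the riociguat groups it was 11.4% after 6 h, 17.8% after 12 h and 13.7% after 24 h. In DMSO replicate 1 all 13 messages were higher than the mean of the other 2 DMSO libraries, but by very different factors. The ratio was 6.61 for mt-Atp8, 2.94 for mt-Nd2, 2.85 for mt-Nd6 and 1.93 for mt-Nd4, whereas it was 1.27 for mt-Nd3, 1.39 for mt-Co1 and 1.4 for mt-Nd1. That of mt-Nd6 rests on few reads, since this gene had 12 to 45 counts per library. The 2 mitochondrial ribosomal RNAs differed in the same library, by 2.33 for mt-Rnr2 and 1.46 for mt-Rnr1.

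Riociguat 24 h replicate 1 stood apart in mt-Atp8 and mt-Nd2 too. The ratio to the other 2 libraries of its group was 4.22 for mt-Atp8, 1.83 for mt-Nd2 and 1.77 for mt-Nd6, but 1.1 for mt-Co1 and 0.854 for mt-Nd3. For the low-count mt-Nd6 the ratio was as high in riociguat 6 h replicate 2 (1.84). Thus mt-Atp8 was at 87.7, 14.4 and 12.2 CPM in DMSO, at 37.6, 22.1 and 39.1 CPM after 6 h, at 16.9, 20.7 and 35.2 CPM after 12 h, and at 107, 17 and 33.7 CPM after 24 h. Likewise mt-Nd2 was at 3304.8, 1206.9 and 1039.6 CPM in DMSO and at 2577.4, 1388.2 and 1424.5 CPM after 24 h. The nuclear members did not follow this, since their sum in DMSO replicate 1 was the lowest of its group. No label names a batch for these libraries.

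**Figure D4:**
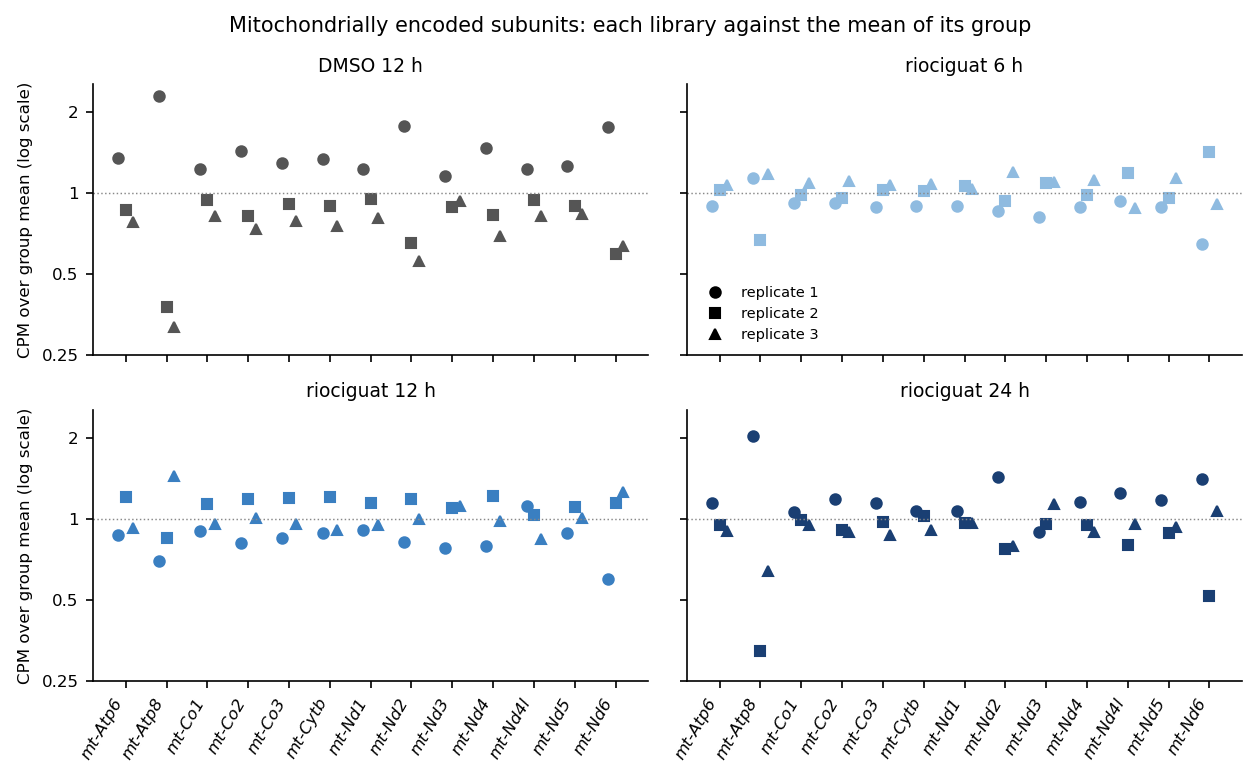
CPM of each mitochondrially encoded subunit in each library divided by the mean of its own group (log scale), 1 panel per group, replicates by symbol. Replicate 1 of DMSO is above the other libraries of its group for all 13 genes and most for mt-Atp8 and mt-Nd2, and replicate 1 of the 24 h group shows the same for mt-Atp8 and mt-Nd2.

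With all libraries and the filter on low counts, neither edgeR without a replicate block nor DESeq2 called a mitochondrially encoded member in any of the 6 comparisons, and 4, 0 and 2 of the 13 had an unadjusted p under 0.05 after 12, 6 and 24 h against DMSO. Of all 16036 genes, 2695, 3722 and 4216 did. For example, mt-Nd1, a core membrane subunit of complex I, was at 4098.4, 3171.8 and 2688.1 CPM in DMSO and at 3837.8, 4830.8 and 4011.3 CPM after 12 h. The complex IV core gene mt-Co1 was at 11111.6, 8555.5 and 7427.6 CPM in DMSO and at 9777.4, 12383 and 10432.3 CPM after 12 h. In both genes DMSO replicate 1 lay within the 12 h range and the other DMSO libraries lay below it. Other fits made calls. With the replicate block mt-Nd4l was called after 24 h (0.43 ± 0.12, SE, adjusted p = 0.0335), and without the filter on low counts 3, 9 and 6 of the 13 were called after 6, 12 and 24 h. The calls without the filter went both ways. After 24 h mt-Atp8, mt-Nd1 and mt-Nd4l were higher and mt-Co2, mt-Co3 and mt-Nd3 lower. After 12 h only mt-Atp8 was lower, and after 6 h all were higher. In that fit all genes shared 1 spread, as described further on. Without DMSO replicate 1 the calls were different too. After 12 h 8 of the 13 were then called higher, at log2 fold changes of 0.69 ± 0.14 (SE) for mt-Nd4, 0.63 ± 0.11 for mt-Cytb, 0.59 ± 0.15 for mt-Nd4l, 0.56 ± 0.11 for mt-Atp6, 0.53 ± 0.09 for mt-Nd1, 0.51 ± 0.13 for mt-Co2, and 0.44 for both mt-Co1 and mt-Co3. In that fit 633 of all genes were called higher and 629 lower, compared with 349 and 558 with all libraries. After 6 h 5 were then called higher (mt-Co1, mt-Co2, mt-Cytb, mt-Nd1 and mt-Nd4, at 0.30 to 0.51), and after 24 h mt-Atp8, mt-Nd1, mt-Nd2 and mt-Nd4l (at 0.32 to 2.0). The calls against DMSO thus changed with 1 control library. They changed with a treated library as well. Without riociguat 24 h replicate 2, mt-Nd4l was called higher after 24 h (0.58 ± 0.16, SE, adjusted p = 0.0262). The 24 h and 12 h riociguat groups had a median log2 difference of -0.21 over the 13 messages, with none called in the fit of all 12 libraries, whose estimate of the spread includes the DMSO libraries. With the 6 libraries of these groups fitted alone, mt-Cytb was called lower (-0.38 ± 0.10, SE, adjusted p = 0.0476).

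Between riociguat times, the share of nuclear members called exceeded that of all genes for 24 h against 6 h. There, 23 were called higher and 0 lower (26.1% of 88), beside 7.16% of all genes higher and 8.13% lower, and the median log2 difference was 0.16 with 82 of 88 above 0. These 23 were spread over all complexes, with 8 of 36 in complex I, 2 of 8 assembly factors, 2 of 4 in complex II, 4 of 8 in complex III, 4 of 15 in complex IV and 3 of 17 in complex V. The lowest adjusted p was that of Atp5g1, at 87.1, 76.5 and 78.7 CPM after 6 h and at 98.3, 110 and 101 CPM after 24 h (0.35 ± 0.06, SE, adjusted p = 0.000577). Uqcrb differed by 0.38 ± 0.09 (adjusted p = 0.0107), Cox7c by 0.38 ± 0.09 (adjusted p = 0.0081) and Ndufv2 by 0.25 ± 0.06 (adjusted p = 0.0052). The members that fell at 6 h were among the 23, with differences of 0.61 ± 0.18 for Ndufaf6, 0.43 ± 0.13 for Ndufaf5 and 0.18 ± 0.05 for Sdhd. The 24 h libraries enter this comparison and that with DMSO alike, so the comparisons are not independent. Only 4 members were called without riociguat 6 h replicate 3, whose nuclear sum was the lowest of all libraries, and 7 without riociguat 24 h replicate 3, whose sum was the highest. Over all genes 789 were then called higher and 983 lower, and 861 and 960, beside 1148 and 1303 with all libraries.

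The members called between 24 h and 6 h but in no comparison with DMSO were chosen for naming after their values were seen. They were Ndufa2, Ndufa12, Ndufab1, Ndufb8, Ndufb10, Ndufs1 and Ndufs8 of complex I, Sdha of complex II, Uqcrc1 of complex III, Cox6a1, Cox6b1 and Cox7b of complex IV, and Atp5c1 of complex V. Their log2 differences ran from 0.14 ± 0.04 (SE) for Sdha to 0.42 ± 0.11 for Ndufa2. In Sdha the 6 h libraries were at 208, 218 and 206 CPM, the DMSO libraries at 222, 221 and 223 CPM and the 24 h libraries at 238, 232 and 228 CPM, so that the DMSO values lay between the riociguat groups.

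After 12 h against 6 h, 3 members were called higher and 0 lower, which is 3.41% of the nuclear members (beside 6.09% of all genes, 2.57% higher and 3.52% lower), namely Ndufaf6 (0.67 ± 0.18, SE, adjusted p = 0.031), Ndufaf5 (0.47 ± 0.13, adjusted p = 0.0405) and Ndufv3 (0.27 ± 0.07, adjusted p = 0.0387). The log2 difference was above 0 for 83 of the 88 nuclear members. None was called after leaving out any 1 of riociguat 6 h replicates 1 and 3 and riociguat 12 h replicates 1 and 2. Over all genes 324, 243, 304 and 272 were then called higher and 402, 357, 408 and 324 lower. With all libraries it was 412 and 564. After 24 h against 12 h edgeR called no member (beside 3.08% of all genes, 1.37% higher and 1.71% lower). An unadjusted p under 0.05 was found for 12 of the 101 members, beside 2243 of all 16036 genes. DESeq2 called 1 member higher, beside 321 of all genes higher and 355 lower.

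Genes that serve the chain were taken from lists of related genes. Beside these lists, 13.4% of all genes were called against DMSO after 24 h (5.94% higher and 7.41% lower), 9.72% after 6 h and 5.66% after 12 h. Of 40 further assembly factors tested, 2 rose and 1 fell after 24 h (7.50%), a share below that of all genes. Cox20, which helps insert mt-Co2, rose by a log2 fold change of 0.83 ± 0.20 (SE, adjusted p = 0.00973), from 5.7 ± 2.3 CPM to 10.1 ± 0.955 CPM (SD, n = 3). Cox16, a complex IV assembly factor, rose by 0.42 ± 0.10 (adjusted p = 0.00804). Bcs1l, which inserts the iron-sulfur protein into complex III, fell by 0.30 on the log2 scale (SE 0.09, adjusted p = 0.0304), a call lost under 8 of the 13 alternatives. After 6 h 3 of the 40 fell and 0 rose (7.50%), Bcs1l among them (-0.37 ± 0.09, adjusted p = 0.0125), and after 12 h 1 rose (2.50%), Cox20 (0.76 ± 0.20, adjusted p = 0.0321).

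Regulators of mitochondrial biogenesis, a list with Ppargc1a, Nrf1, Gabpa and Yy1, had 0 risen and 1 fallen of 15 tested after 24 h. That gene was Nos3, the endothelial nitric oxide synthase, at -0.38 ± 0.11 (SE, adjusted p = 0.0298), beside the lower endothelial markers given above. After 6 h Prkaa2, a catalytic subunit of AMP-activated kinase, rose by 0.31 ± 0.09 (adjusted p = 0.0452), and after 12 h edgeR and DESeq2 each called 0 of the 15, with 0 at an unadjusted p under 0.05. Of 17 genes for mitochondrial transcription and DNA maintenance, the only one called at any time against DMSO with all libraries was Mterf3, a negative regulator of mitochondrial transcription. It was at 29.3 ± 3.7 CPM in DMSO and 38.7 ± 1.86 CPM after 24 h (SD, n = 3), with log2 fold changes of 0.31 after 6 h, 0.32 after 12 h and 0.40 after 24 h (adjusted p = 0.0358, 0.0465 and 0.00615). Its call held under all 13 alternatives after 24 h but was lost under 6 of them after 6 h (adjusted p up to 0.171) and 7 after 12 h (up to 0.215).

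Mitochondrial RNA processing genes had 1 risen and 1 fallen of 22 tested after 24 h. Slirp, which with Lrpprc stabilises mitochondrial messages, rose by 0.66 ± 0.15 (SE, adjusted p = 0.00818), and Tbrg4, an RNA-binding protein of the FASTK family, fell by 0.20 (adjusted p = 0.0181). After 6 h 3 of the 22 fell and 1 rose. Lrpprc was among the fallen, at 99.5 ± 0.0598 CPM in DMSO and 84 ± 3.98 CPM after 6 h (SD, n = 3), a log2 fold change of -0.25 ± 0.05 (adjusted p = 0.00182).

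Of the 18 TCA cycle genes edgeR called 0 after 24 h, with 3 at an unadjusted p under 0.05 and 0 called by DESeq2. Pcx, pyruvate carboxylase, rose after 6 h from 45 ± 3.96 to 73.5 ± 1.87 CPM (SD, n = 3, log2 fold change 0.71 ± 0.07) and was at 44.4 ± 3.13 CPM after 24 h. Citrate synthase (Cs) fell by 0.15 after 12 h (SE 0.04, adjusted p = 0.0269). In the list of electron carriers and exchangers 2 of 24 rose and 1 fell after 24 h. Cytochrome c (Cycs) rose by 0.28 ± 0.08 (SE, adjusted p = 0.0263), the adenine nucleotide translocator Slc25a5 rose by 0.18 ± 0.05 (adjusted p = 0.0189) and the outer membrane channel Vdac2 fell at every time, by 0.25, 0.22 and 0.17 after 6, 12 and 24 h. The Vdac2 call was lost under 2 of the 13 alternatives after 12 h and 5 after 24 h.

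Mitochondrial ribosomal proteins, which translate the 13 mitochondrial messages, had 5 risen and 0 fallen of 78 tested after 24 h (6.41%, beside 5.94% of all genes that rose), with a median log2 fold change of 0.07. Mrpl55 and Mrpl1 each rose by 0.35 (adjusted p = 0.0104 for both) and Mrps21 by 0.30 ± 0.08 (SE, adjusted p = 0.0209). The cytosolic ribosomal proteins named by rule were Rps15a (0.26 ± 0.04, adjusted p = 0.000329), Rps24 (0.32 ± 0.05, adjusted p = 0.000663) and Rps25 (0.30 ± 0.05, adjusted p = 0.000725).

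Of 14 genes of the hypoxia and mitophagy list 3 rose and 0 fell after 24 h, Vegfa among them (0.26 ± 0.04, SE, adjusted p = 0.000614), although the oxygen-linked isoforms Cox4i2 and Ndufa4l2 did not pass the test. After 6 h 3 rose and 2 fell, with the glucose transporter Slc2a1 at 0.42 ± 0.05 and the mitophagy receptor Bnip3l at 0.31 ± 0.05 (adjusted p = 0.000353). Of 19 mitochondrial stress response genes 4 rose and 3 fell after 24 h. Pck2, the mitochondrial phosphoenolpyruvate carboxykinase, rose at every time, by 0.39, 0.58 and 0.42 after 6, 12 and 24 h, as did asparagine synthetase, Asns (0.23, 0.30 and 0.25), while Sesn2 fell by 0.29 after 24 h (adjusted p = 0.000987).

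**Figure D5:**
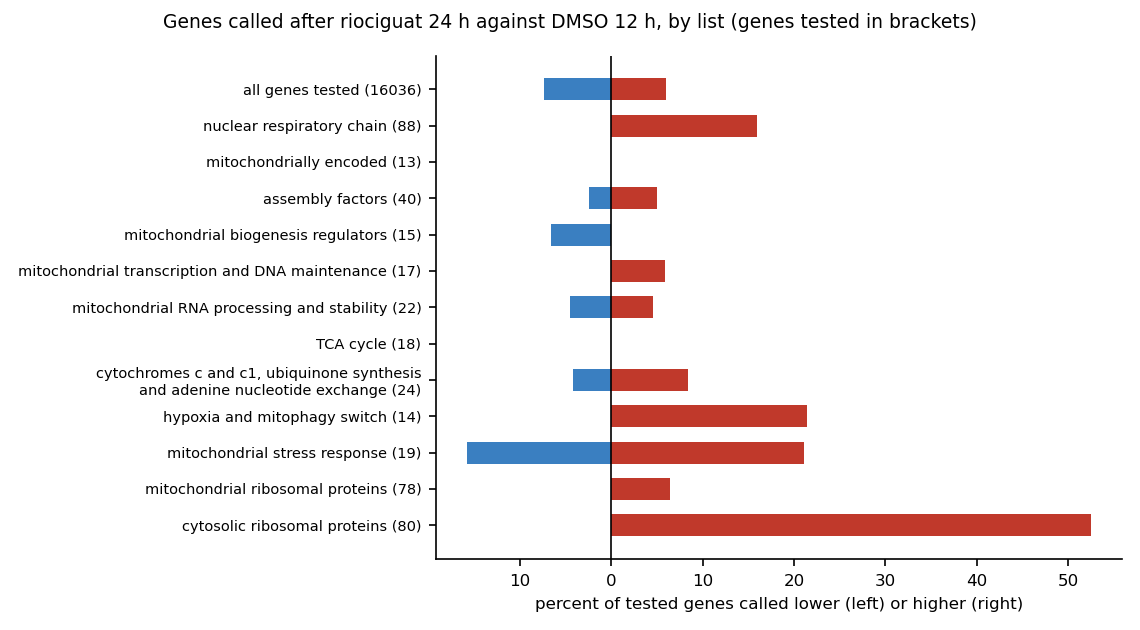
Percent of tested genes called higher (red, right) or lower (blue, left) after 24 h of riociguat against DMSO, for all genes, the nuclear and the mitochondrially encoded members and each list, with the number tested in brackets. The nuclear members have 14 of 88 to the right and none to the left, the cytosolic ribosomal proteins 42 of 80 and none, and the mitochondrially encoded members and the TCA cycle list none on either side.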

How the data were processed

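RNA sequencing of 12 libraries was analysed from 1 table of estimated counts per gene, which the authors deposited as whole numbers. FastQC, fastp, Salmon, DESeq2 and the genome GRCm38 are named in the submitters' processing notes, with no versions, and no source used here gives the strand setting. Ensembl identifiers were given symbols, gene types and positions from GENCODE mouse release 21 on GRCm38, which held 53355 of the 53452 identifiers. Columns were assigned to samples by their names, and 0 columns were left unassigned.

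Genes with low counts were removed with filterByExpr, libraries were scaled by the TMM method, and edgeR 4.0.16 (R 4.3.3) fitted 4 groups together. Log2 fold changes carry the standard error of that fit. CPM values are scaled by the same factors, and SD are over 3 libraries. On data simulated for riociguat 12 h against DMSO with 15718 genes tested, 69 of 99 genes changed 2-fold and 62 of 100 changed 1.5-fold were recovered in 1 run, in which 7 unchanged genes were also called. Both folds were larger than any change of a member called after 24 h. The simulated spread followed the trend with expression level over all genes. The run therefore does not show how often smaller changes, or changes of the more variable mitochondrial members, would be found. Transcript lengths are the median over a gene's protein-coding transcripts.

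Named genes were all mitochondrially encoded members, nuclear members called against DMSO (at most 24), the 8 restricted isoforms, and up to 3 called genes of each list with the smallest p. The members and lists were chosen with earlier results of these data known. Alternatives were other scaling (DESeq2's size factors in edgeR, and library totals without mitochondrially encoded genes), DESeq2 1.42.0, no filter or at least 1 CPM in 6 libraries, the compared libraries alone, a replicate block and each library left out.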

Additional observations from a re-analysis of the deposited data

Results flagged for a closer look

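Of the members called against DMSO, 10 differed in the effect of riociguat between 2 exposure times. Since both times were set against the same DMSO libraries, the test of this difference is the comparison between the riociguat groups themselves (edgeR, adjusted over all genes). Between 12 h and 6 h the log2 fold change differed by 0.67 for Ndufaf6 (adjusted p = 0.031) and by 0.47 for Ndufaf5 (adjusted p = 0.0405). Between 24 h and 6 h it differed by 0.39 for Uqcr11, 0.38 for Uqcrb, 0.38 for Cox7c, 0.35 for Atp5g1, 0.32 for Uqcrh, 0.25 for Ndufv2, 0.18 for Sdhd and 0.17 for Atp5f1, with adjusted p from 0.000577 for Atp5g1 to 0.037 for Atp5f1. All these differences were positive, so the level was higher at the longer exposure. However, the genes were picked by calls against DMSO that used the same 6 h or 24 h libraries. That choice favours such a sign and small p-values, so these differences are not separate evidence.

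Among the related genes the same test gave differences between 24 h and 6 h of 0.54 for Slirp, 0.29 for Mrpl55, 0.25 for Rps24, 0.24 for Rps25 and 0.20 for Rps15a. Lower at the longer exposure were Pcx, with -0.73 (adjusted p = 2.07e-06), Bnip3l and Sesn2, both with -0.17, and, between 12 h and 6 h, Slc2a1 with -0.30 (adjusted p = 0.000742). The related genes were also picked by their calls against DMSO, so the same limit holds for them.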

How the results depend on the processing

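The counts of called members moved with several settings. The summed levels were recomputed under other scalings and with each library left out. The log2 ratio of the mitochondrial sum to DMSO ran from -0.07 to 0.35 after 6 h, 0.09 to 0.51 after 12 h and -0.17 to 0.26 after 24 h, each highest without DMSO replicate 1, which also widens the spread of the DMSO group. That of the nuclear sum ran from -0.09 to -0.03, 0.01 to 0.04 and 0.06 to 0.10. Without the filter on low counts 6 of 105 members were called after 6 h, 14 after 12 h and 26 after 24 h against DMSO, 13 for 12 h against 6 h and 9 for 24 h against 12 h. Of all 31124 genes, 1034, 689 and 1352 were then called higher and 952, 594 and 1208 lower after 6, 12 and 24 h. It was 676 higher and 649 lower for 12 h against 6 h, and 373 and 465 for 24 h against 12 h. In that fit 31124 genes entered and the prior degrees of freedom became infinite, so that all genes shared 1 spread, against 8.8 with the filter, and up to 9 of the called members were mitochondrial. DESeq2 called 3 members after 12 h against DMSO and 1 for 24 h against 12 h, where edgeR called 0. With only the 6 libraries compared, 1 member was called after 6 h against DMSO and 1, the mitochondrial mt-Cytb, for 24 h against 12 h; the cause was not tested.

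Leaving out each library in turn gave 1 to 11 called members after 6 h, 0 to 12 after 12 h and 4 to 15 after 24 h against DMSO. It gave 0 to 3 for 12 h against 6 h and 4 to 22 for 24 h against 6 h. Calls over all genes moved too. After 24 h against DMSO they went from 952 higher and 1189 lower with all libraries to 598 and 797 without DMSO replicate 2. Without DMSO replicate 1 they were 1308 and 1258. The values at the ends without DMSO replicate 1 (11, 12 and 15) included 5, 8 and 4 mitochondrial members. Where an arm was left with 2 libraries, they were taken to vary like the other groups.

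Same-numbered libraries had correlations of their deviations from -0.202 to 0.167. All were positive between riociguat 6 h and 12 h (0.129, 0.0794 and 0.13) and between DMSO and 24 h (0.167, 0.0822 and 0.0551). All were negative between the other pairs of groups. These mixed signs do not decide whether the numbers pair the libraries. With the replicate block 1 member was called after 12 h against DMSO, 1 for 12 h against 6 h and 15 after 24 h against DMSO, among them the mitochondrial mt-Nd4l. Under the block mt-Atp8 was at 0.18 after 6 h and mt-Nd2 at 0.06, 0.10 and 0.02 after 6, 12 and 24 h against DMSO, each opposite in sign to the value without it, and none was called.

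Of the 20 related genes named as called after 24 h against DMSO, 11 kept the call under all alternatives, as did 7 of 12 after 6 h and 3 of 8 after 12 h. Those lost under at least 5 of the 13 were Bcs1l (8), Cycs and Vdac2 (5 each) after 24 h. After 6 h they were Tbrg4 (8), Idh2, Mterf3 and Prkaa2 (6 each), and after 12 h Cs and Mterf3 (7 each) and Cox20 (6). Of 1402 values recomputed for single named genes, 1142 kept their direction and their side of the threshold, 177 fell short of it, 36 passed it and 47 changed sign. All 47 were mitochondrially encoded members compared with DMSO, and 43 came from leaving out 1 library. These members entered whatever their p, some with almost no change, such as mt-Nd5 at 0.00 after 12 h. The other named genes entered only for comparisons that called them, where a change of sign is unlikely. The contrast between the 2 kinds of gene therefore follows largely from this choice. Ranges of the log2 fold change are given next for the members that changed sign. Against DMSO after 6 h, these ranges were mt-Atp6 -0.09 to 0.34, mt-Atp8 -0.62 to 1.31, mt-Co2 -0.12 to 0.41, mt-Co3 -0.10 to 0.27, mt-Cytb -0.07 to 0.37, mt-Nd2 -0.38 to 0.63, mt-Nd4 -0.08 to 0.51, mt-Nd4l -0.04 to 0.28 and mt-Nd5 -0.08 to 0.24. Against DMSO after 12 h, these ranges were mt-Atp8 -1.06 to 0.86, mt-Co2 -0.02 to 0.51, mt-Nd2 -0.34 to 0.66, mt-Nd3 -0.18 to 0.06 and mt-Nd5 -0.10 to 0.21. Against DMSO after 24 h, these ranges were mt-Atp6 -0.20 to 0.21, mt-Atp8 -0.56 to 2.0, mt-Co1 -0.06 to 0.23, mt-Co2 -0.30 to 0.22, mt-Co3 -0.30 to 0.06, mt-Cytb -0.17 to 0.25, mt-Nd2 -0.38 to 0.68, mt-Nd4 -0.22 to 0.37 and mt-Nd5 -0.01 to 0.32.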
